A study of Homo sapiens with 32 samples.

Results

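The genes described here are 40 genes of the ATF4 arm of the integrated stress response, followed in MDA-MB-468 cells treated with salinomycin (Sal), dasatinib (Das) or both drugs. The rule is a list of gene names, which was written with earlier results of these data known. The list covers stress transcription factors, stress effectors and feedback genes, amino acid and one-carbon enzymes, amino acid transporters, and genes that charge or export tRNA. All 40 were found among the 48804 genes of the count table, of which 33132 had at least 1 count, and all 40 had enough counts to be tested at both times.

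MDA-MB-468 is an established line of triple negative breast tumor cells, and every group came from this 1 line. Control flasks were given PBS, and treated flasks 0.5 μM of Sal, 15 μM of Das, or the pair at these doses (S + D). RNA was taken after 24 h or 72 h. The 8 groups held 4 libraries each, which the labels call biological replicates. In each group 3 libraries carried a replicate number and 1 did not (the unnumbered library). Sal is a polyether antibiotic that carries monovalent cations across membranes, and Das inhibits Src family and ABL kinases.

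When kinases that sense misfolded protein, missing amino acids, heme shortage or double-stranded RNA phosphorylate eIF2α, most protein synthesis slows while the mRNA of ATF4 is translated more. ATF4 is a transcription factor that binds, often with a C/EBP family partner, to elements upstream of genes for amino acid synthesis, amino acid uptake and tRNA charging. Because much of the control of ATF4 itself is at translation and protein turnover, its mRNA level is not a measure of its protein.

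The composite element bound by such pairs has a core often written TGATGNAA, read on the other strand as TTNCATCA, where N is any base. The 500 bases upstream of the canonical transcription start could be read for 39 of the members, all but DDIT4, from the GRCh37 genome and its GENCODE annotation. This core was found in 12 of the 39 windows (30.8%), against 911 of 19110 windows of protein-coding genes (4.77%). The members were listed as genes of the ATF4 arm, so the larger share can follow from that choice and is not a test. A match is a stretch of letters and not a measured binding site, and no match says only that these letters were not in the window. The windows with a match were those of ATF3, DDIT3, NUPR1, CHAC1, SESN2, VLDLR, ASNS, PCK2, SLC7A11, AARS1, GARS1 and WARS1. Those of the transcription factors, enzymes, transporters and tRNA genes to which most of the results below refer are shown on the strand of the gene, 5′ to 3′, with the core in capitals.
DDIT3, chr12:57914585-57914614, minus strand: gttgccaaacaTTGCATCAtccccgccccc
ATF3, chr1:212782071-212782100, plus strand: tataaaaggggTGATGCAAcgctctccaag
ATF3, chr1:212781889-212781918, plus strand: cctccccgaacTTGCATCAccagtgccccc
NUPR1, chr16:28550368-28550397, minus strand: aaggggccagaTTGCATCAgacagggcctg
CHAC1, chr15:41245449-41245478, plus strand: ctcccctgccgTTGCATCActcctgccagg
ASNS, chr7:97501770-97501799, minus strand: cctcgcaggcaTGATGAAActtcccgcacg
SLC7A11, chr4:139163580-139163609, minus strand: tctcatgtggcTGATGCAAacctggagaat
SLC7A11, chr4:139163561-139163590, minus strand: acctggagaatTTGCATCAtcatttagctg
AARS1, chr16:70323578-70323607, minus strand: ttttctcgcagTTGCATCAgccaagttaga
WARS1, chr14:100841932-100841961, minus strand: tgaggggtggcTGATGCAAtgaccagctaa
The core began 68 bases upstream of the start of ASNS, 306 bases upstream of that of DDIT3 and 21 and 203 bases upstream of that of ATF3. Read with the core as TGATGNAA, ASNS carried A at the N, and the other sequences printed carried C there. Of the matches not printed, those of SESN2 and GARS1 carried A, that of PCK2 T and that of VLDLR C.

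Libraries held 25692561 to 42769687 counts, and levels below are counts scaled by edgeR to a library of fixed size (CPM), so a higher level is a larger share of the RNA counted. In such bulk RNA a change in every cell cannot be told apart from a larger change in part of the cells. EPCAM, CDH1 and the keratins KRT8, KRT18 and KRT19 were high in every library, and the leukocyte markers PTPRC, CD3E and CD68 did not exceed 0.232 CPM. Of the basal markers, EGFR stood at 2790 to 5920 CPM and KRT5 at 28 to 915 CPM. The basal keratins KRT6A, KRT6B and KRT14 were low, with medians of 0.311, 1.86 and 2.46 CPM. PGR was at or near 0, while ESR1 held 3.64 to 12 CPM and ERBB2 56.8 to 192 CPM. The summed level of the 5 epithelial markers was 5040 to 5690 CPM in the controls and lower with treatment, down to 1830 to 2190 CPM with S + D at 72 h. The summed fibroblast list was 18.3 to 36.9 CPM in the 24 h controls and 68.7 to 122 CPM with S + D at 72 h, nearly all of it COL1A1, with COL1A2 at 0 in 30 libraries. The part of these shifts in the members' results was not tested. Over all genes the unnumbered library mostly lay farther from the numbered ones of its group (root mean square difference of log2 CPM 0.48 to 0.781) than these lay from each other (0.285 to 0.49, Das 72 h replicate 3 set aside). Fits of the numbered libraries alone leave out this wider spread, and their errors and p-values do not measure it. Das 72 h replicate 3 stood apart in another way. It was 0.658 to 0.764 from the other libraries of its group and 0.635 to 0.782 from the control libraries, whereas the other Das 72 h libraries were 0.801 to 1 from those controls. For comparisons within 72 h, counts over the 40 members that use this library are therefore given with and without it. So are the Das 72 h values of many members. Counts by role group, by pathway list and for the Das response between the times are given only with this library kept.

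In the fit of all libraries Das and S + D raised most of the members at 24 h. With the numbered libraries alone Sal did too. At 72 h members were called in both directions. A member was called higher or lower at an adjusted p under 0.01 in edgeR, with p-values adjusted over all genes tested (16357 at 24 h and 16682 at 72 h). After 24 h Sal raised 11 members and lowered 0, where 4.55% of all genes were called higher and 2.23% lower. Das raised 26 and lowered 0 (6.99% and 6.88% of all genes). S + D raised 31 and lowered 0 (17.1% and 16.5% of all genes). With the numbered libraries alone the 24 h counts were 31 higher and 2 lower for Sal (12.7% and 10.9% of all genes), 36 and 1 for Das (20.6% and 18.7%), and 34 and 2 for S + D (28.7% and 29.4%).

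After 72 h Sal raised 19 members and lowered 8, beside 26.3% and 26.8% of all genes. Das raised 16 and lowered 1 (10.5% and 9.36% of all genes), and 20 and 2 when replicate 3 was left out (14.6% and 13.2%). Leaving out Control 72 h replicate 3 instead left 11 members called with Das. S + D raised 24 and lowered 6 (27% and 27.9% of all genes). With the numbered libraries alone the 72 h counts were 19 higher and 10 lower for Sal (27.8% and 29.6% of all genes), 17 and 1 for Das (11.2% and 11.5%), and 24 and 10 for S + D (28.4% and 29.5%). The median log2 fold change of the members against the control was 0.41 for Sal, 0.71 for Das and 0.93 for S + D at 24 h, and 0.36, 0.40 and 0.68 at 72 h, while the median over all genes tested was between -0.0192 and 0.0403 in these 6 comparisons. With Sal at 72 h the share of members called lower (20%) was thus below that of all genes and the share called higher (47.5%) above it.

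**Figure D1:**
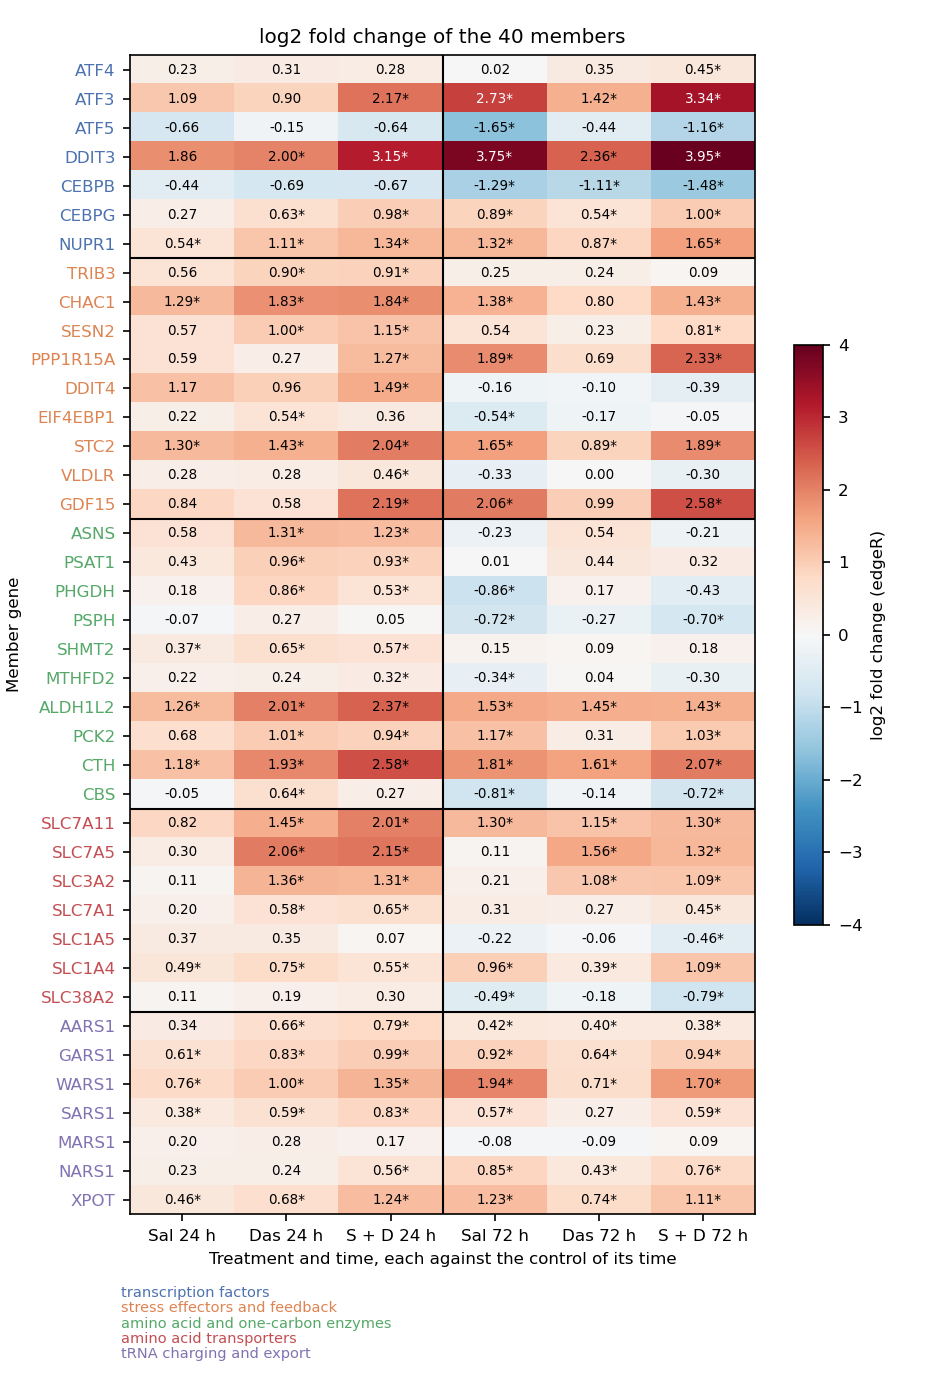
Fold change of each member (rows, grouped by role) in the 6 treatment groups against the control of the same time (columns), as log2 from edgeR with an asterisk at an adjusted p under 0.01. The 24 h columns hold no called decrease, and the 72 h columns hold decreases of CEBPB, ATF5, PSPH and CBS among others.

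Among the transcription factors the mRNA of ATF4 itself was called with S + D at 72 h alone, while DDIT3 and ATF3, which lie below it in the pathway, rose with all 3 treatments at that time. In what follows the values of a group are in the order replicates 1, 2 and 3 and the unnumbered library. ATF4 stood at 684, 687, 700.3 and 696 CPM in the 24 h controls and 783, 717, 817 and 959.7 CPM with Sal. It was 805, 763.5, 852 and 974 CPM with Das and 810.1, 782, 787 and 906 CPM with S + D. Every treated library at 24 h lay above every control library, yet the log2 fold changes of 0.23 ± 0.089 (adjusted p = 0.0992) for Sal, 0.31 ± 0.09 (adjusted p = 0.0177) for Das and 0.28 ± 0.09 (adjusted p = 0.0172) for S + D missed the threshold. In the numbered libraries alone they were 0.18 ± 0.052 (adjusted p = 0.0137), 0.26 ± 0.052 (adjusted p = 0.00045) and 0.22 ± 0.052 (adjusted p = 0.00137). At 72 h the levels were 674, 695, 686 and 686 CPM in controls, 709, 677, 662 and 769.8 CPM with Sal, 933, 885, 787 and 907 CPM with Das and 1149, 871, 896 and 879 CPM with S + D. Only S + D passed the test at 72 h, with a log2 fold change of 0.45 ± 0.10 (adjusted p = 0.000999), and replicate 1 was the highest of that group. Sal libraries overlapped the controls at this time (0.02 ± 0.10, adjusted p = 0.867). Das gave 0.35 ± 0.10 (adjusted p = 0.0154), and 0.42 ± 0.10 (adjusted p = 0.00407) without replicate 3.

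DDIT3 encodes CHOP, a C/EBP family factor that can promote cell death under prolonged stress, and with each treatment at 72 h it showed the largest fold change of the 40 members. Controls at 24 h held 7.02, 8.42, 6.71 and 13.7 CPM, and the Sal libraries held 17.65, 19.5, 23.8 and 71.4 CPM. With Das it reached 25.5, 24.4, 23.9 and 67.5 CPM and with S + D 65.6, 62.8, 61.1 and 121 CPM. All 3 treated groups were above the controls in every library, and the unnumbered library was the highest of every group. The log2 fold change was 1.86 ± 0.46 (adjusted p = 0.013) for Sal, which missed the threshold, 2.00 ± 0.46 (adjusted p = 0.00501) for Das and 3.15 ± 0.48 (adjusted p = 6.77e-05) for S + D. In the numbered libraries alone Sal gave 1.47 ± 0.10 (adjusted p = 5.29e-09), with a smaller error that leaves out the spread to the unnumbered library. By 72 h the controls held 9.71, 11.6, 10.15 and 17.3 CPM and the Sal libraries 153, 164.5, 163 and 185.5 CPM. Das libraries held 77.8, 70.1, 17.3 and 87.3 CPM and S + D libraries 231, 163, 163.5 and 206 CPM. Sal raised DDIT3 13.5-fold (3.75 ± 0.36, adjusted p = 1.55e-07 as log2) and S + D 15.5-fold (3.95 ± 0.36, adjusted p = 8.31e-08). Das raised it 5.15-fold (2.36 ± 0.34, adjusted p = 7.55e-05), with replicate 3 barely above the highest control, and by 2.69 ± 0.18 (adjusted p = 1.79e-08) on the log2 scale without that library. Of the exon bases of DDIT3, 31.6% are shared with MARS1 and MBD6 on the other strand, and whether the counting used strand is not given in the sources used here. MARS1 itself was called in none of the 6 comparisons (log2 fold changes -0.09 to 0.28).

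The remaining transcription factors went both ways. ATF3, a stress-induced factor that can repress its targets, rose with Sal (2.73 ± 0.33), Das (1.42 ± 0.32) and S + D (3.34 ± 0.34) at 72 h (log2 fold change ± SE, here and below). Das replicate 3 held 13.27 CPM, below all 72 h controls (13.93 to 19.26 CPM), and without it Das gave 1.73 ± 0.20. At 24 h it rose with S + D (2.17 ± 0.50), and in the unnumbered S + D library it stood at 102.6 CPM where the numbered ones held 28.2 to 30.9 CPM. CEBPG, a C/EBP partner of ATF4, rose with Das and S + D at 24 h (0.63 ± 0.11 and 0.98 ± 0.11) and with all 3 treatments at 72 h (0.89 ± 0.11, 0.54 ± 0.11 and 1.00 ± 0.11), with 0.66 ± 0.093 for Das without replicate 3. NUPR1, a small stress-induced chromatin protein, rose in all 6 comparisons, from 0.54 ± 0.12 with Sal at 24 h to 1.65 ± 0.18 with S + D at 72 h. Its call with Sal at 24 h (adjusted p = 0.00788) was lost in 7 of 8 fits that left out 1 library. In contrast, ATF5, a factor under the same translational control as ATF4, fell with Sal (-1.65 ± 0.19) and S + D (-1.16 ± 0.18) at 72 h, and 19.5% of its exon bases are shared with genes of the other strand. CEBPB, a C/EBP factor of inflammation and differentiation, fell with Sal, Das and S + D at 72 h (-1.29 ± 0.24, -1.11 ± 0.24 and -1.48 ± 0.24), and the value for Das without replicate 3 was -1.08 ± 0.27. Thus of 7 transcription factors at 72 h 4 rose and 2 fell with Sal (57.1% and 28.6%, beside 26.3% and 26.8% of all genes), 4 rose and 1 fell with Das (57.1% and 14.3%, beside 10.5% and 9.36%), and 5 rose and 2 fell with S + D (71.4% and 28.6%, beside 27% and 27.9%).

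**Figure D2:**
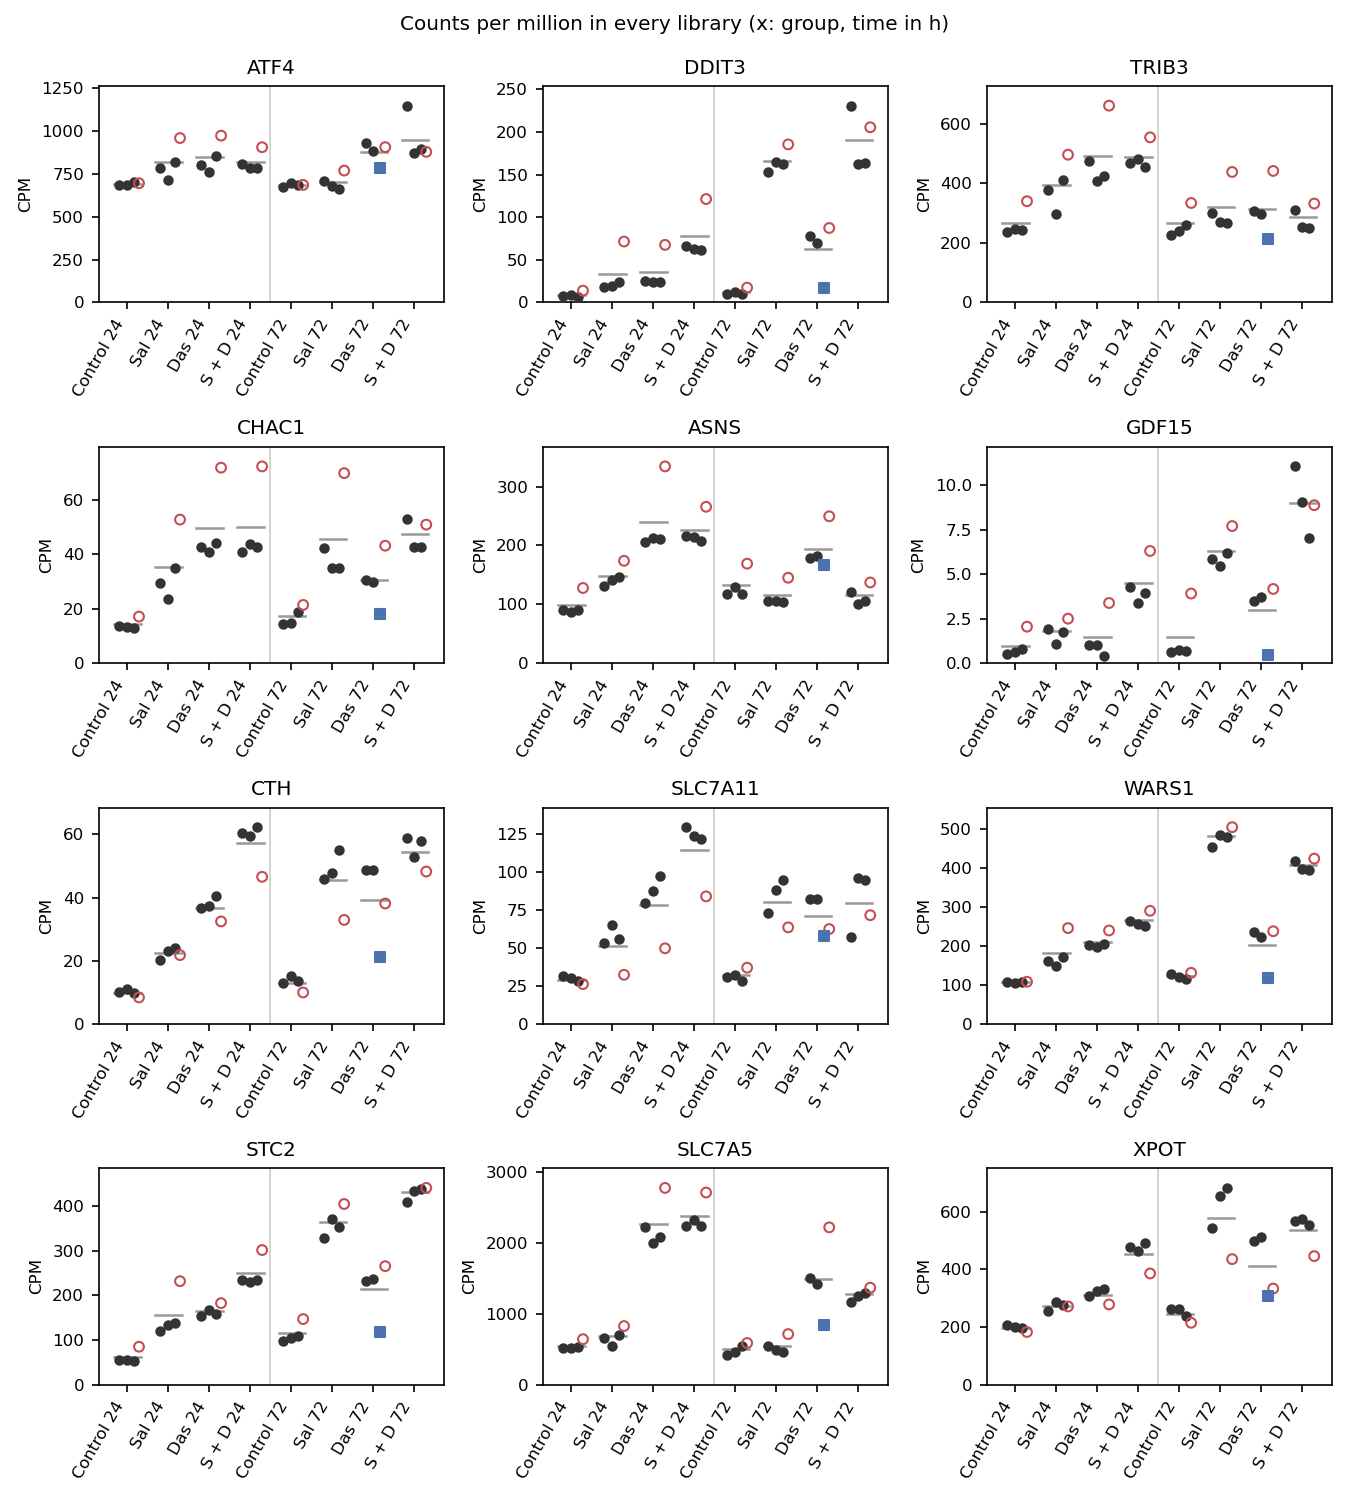
Level of 12 members in every library (y axis, CPM from 0; x axis, group and time in h). Black points are numbered libraries, red circles unnumbered libraries, the blue square Das 72 h replicate 3, and the grey line the mean of 4. DDIT3, GDF15 and WARS1 were highest in the Sal and S + D groups at 72 h, and SLC7A5 in the Das and S + D groups at 24 h.

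Of the 9 stress effectors and feedback genes, Sal raised 2 at 24 h and 4 at 72 h (22.2% and 44.4%, beside 4.55% and 26.3% of all genes) and lowered 1, EIF4EBP1, at 72 h. Das raised 5 and then 1 (55.6% and 11.1%, beside 6.99% and 10.5%), the later share being near that of all genes in this fit, which keeps Das 72 h replicate 3. Without that library CHAC1 was called as well, where 14.6% of all genes were called higher. S + D raised 8 and then 5 (88.9% and 55.6%, beside 17.1% and 27%). TRIB3, a pseudokinase that restrains ATF4 and DDIT3, stood at 237, 246, 245 and 339.9 CPM in 24 h controls and 379, 297, 411 and 496 CPM with Sal. It was 476, 409, 424 and 661 CPM with Das and 467, 481, 455 and 554.5 CPM with S + D. Das and S + D libraries were all above the controls, and the unnumbered library was the highest of each group. The log2 fold changes were 0.90 ± 0.17 (adjusted p = 0.000911) for Das and 0.91 ± 0.17 (adjusted p = 0.000358) for S + D, and 0.56 ± 0.17 (adjusted p = 0.0343) for Sal missed the threshold, with 0.59 ± 0.085 (adjusted p = 3.01e-05) in the numbered libraries. At 72 h TRIB3 was 227, 239, 261 and 334 CPM in controls, 299.9, 271.5, 267 and 438 CPM with Sal, 307, 297, 214 and 442 CPM with Das and 309, 252.5, 249.9 and 332 CPM with S + D. The 4 groups overlapped, and none of the fold changes was called (0.25, 0.24 and 0.09, adjusted p 0.291, 0.381 and 0.706).

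CHAC1, a glutathione-degrading enzyme, was 13.6, 13.4, 12.9 and 17.1 CPM in controls, 29.6, 23.4, 35 and 52.85 CPM with Sal, 42.75, 40.8, 44.1 and 72 CPM with Das and 40.9, 44, 42.6 and 72.4 CPM with S + D at 24 h. No treated library overlapped the controls. It rose with Sal (1.29 ± 0.25, adjusted p = 0.00258), Das (1.83 ± 0.25, adjusted p = 6.91e-05) and S + D (1.84 ± 0.25, adjusted p = 2.17e-05). At 72 h it was 14.5, 14.8, 18.8 and 21.4 CPM in controls, 42.4, 35, 35.1 and 69.96 CPM with Sal, 30.75, 29.85, 18.2 and 43.2 CPM with Das and 53.2, 42.6, 42.7 and 51 CPM with S + D. Sal (1.38 ± 0.24, adjusted p = 9.65e-05) and S + D (1.43 ± 0.24, adjusted p = 6.36e-05) raised it. The value for Das missed the threshold (0.80 ± 0.24, adjusted p = 0.0165), with replicate 3 inside the range of the controls, and was 1.00 ± 0.22 (adjusted p = 0.0015) without that library.

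STC2, a secreted glycoprotein of calcium and phosphate balance, was 56.1, 54.9, 53.4 and 84.8 CPM in controls at 24 h, 119.6, 133, 137 and 232 CPM with Sal, 155, 168, 159 and 182 CPM with Das and 234, 229.6, 235 and 301 CPM with S + D. All treated libraries were above the controls, and the log2 fold changes were 1.30 ± 0.19 (adjusted p = 0.000268), 1.43 ± 0.19 (adjusted p = 4.62e-05) and 2.04 ± 0.19 (adjusted p = 4.99e-07). At 72 h it stood at 98.7, 105, 108 and 147 CPM in controls, 329, 370, 353 and 404.5 CPM with Sal, 233, 236, 119 and 265 CPM with Das and 409.9, 434, 439 and 440.5 CPM with S + D. S + D (1.89 ± 0.19, adjusted p = 2.21e-07) and Sal (1.65 ± 0.19, adjusted p = 1e-06) exceeded the controls in every library. Das also raised it (0.89 ± 0.19, adjusted p = 0.00163, or 1.1 ± 0.12, adjusted p = 2.86e-06 without replicate 3, which lay among the controls). STC2 was one of 3 members that rose in the controls between the times (0.88 ± 0.20).

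GDF15, a secreted stress hormone, had few counts. It was 0.484, 0.603, 0.816 and 2.05 CPM in controls, 1.915, 1.075, 1.73 and 2.49 CPM with Sal, 1.01, 1.02, 0.377 and 3.38 CPM with Das and 4.28, 3.355, 3.95 and 6.3 CPM with S + D at 24 h, and S + D stood clear of the controls (2.2 ± 0.53, adjusted p = 0.00305). In the numbered libraries alone Sal gave 1.34 ± 0.30 (adjusted p = 0.00187). At 72 h it was 0.603, 0.714, 0.667 and 3.91 CPM in controls, 5.85, 5.45, 6.16 and 7.7 CPM with Sal, 3.51, 3.72, 0.466 and 4.16 CPM with Das and 11.05, 9.035, 7.04 and 8.87 CPM with S + D. Sal and S + D raised it (2.06 ± 0.55, adjusted p = 0.00348 and 2.58 ± 0.56, adjusted p = 0.000589). The unnumbered control stood well above the numbered controls, and Das replicate 3 was below all controls. Das gave 0.99 ± 0.56 (adjusted p = 0.179), and 1.37 ± 0.46 (adjusted p = 0.0255) without replicate 3.

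The other effectors are given by their log2 fold changes. PPP1R15A (GADD34, the regulatory subunit that brings the phosphatase to eIF2α) rose with S + D at 24 h (1.27 ± 0.22) and with Sal and S + D at 72 h (1.89 ± 0.23 and 2.33 ± 0.23). SESN2, a leucine sensor that restrains mTORC1, rose with Das and S + D at 24 h (1.00 ± 0.18 and 1.15 ± 0.18) and with S + D at 72 h (0.81 ± 0.20). DDIT4, another brake on mTORC1, rose with S + D at 24 h (1.49 ± 0.37), and its value at 72 h was -0.39 ± 0.24. EIF4EBP1, a repressor of cap-dependent translation, rose with Das at 24 h (0.54 ± 0.12) and fell with Sal at 72 h (-0.54 ± 0.14). VLDLR, a lipoprotein receptor, rose with S + D at 24 h (0.46 ± 0.093).

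Of the 10 enzymes of amino acid and one-carbon metabolism, 3, 8 and 8 were called higher with Sal, Das and S + D at 24 h (30%, 80% and 80%, beside 4.55%, 6.99% and 17.1% of all genes) and 0 lower. At 72 h Sal raised 3 and lowered 4 (30% and 40%, beside 26.3% and 26.8%), Das raised 2 and lowered 0 (20% and 0%, beside 10.5% and 9.36%), and S + D raised 3 and lowered 2 (30% and 20%, beside 27% and 27.9%). The shares called higher with Sal and S + D at 72 h were thus near those of all genes. ASNS, asparagine synthetase, was 89.6, 86.9, 89.35 and 128 CPM in 24 h controls, 130.3, 142, 146 and 174 CPM with Sal, 206, 212, 210 and 334 CPM with Das and 216, 215, 207 and 266 CPM with S + D. All treated libraries were above the controls. Das and S + D raised ASNS (1.31 ± 0.16, adjusted p = 3.02e-05 and 1.23 ± 0.16, adjusted p = 1.67e-05), and the value for Sal missed the threshold (0.58 ± 0.16, adjusted p = 0.0247), with 0.67 ± 0.049 (adjusted p = 7.96e-09) in the numbered libraries. At 72 h ASNS was 117, 129, 117 and 169 CPM in controls, 105, 105, 104 and 145 CPM with Sal, 178, 183, 167 and 249 CPM with Das and 121, 101, 106 and 137 CPM with S + D. Sal and S + D libraries overlapped the controls (-0.23 ± 0.16, adjusted p = 0.225 and -0.21 ± 0.16, adjusted p = 0.254). The numbered Das libraries were above the numbered controls, with 0.54 ± 0.16 (adjusted p = 0.0151) in all libraries and 0.63 ± 0.16 (adjusted p = 0.006) without replicate 3.

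CTH, cystathionine gamma-lyase, which makes cysteine, was 10.2, 10.9, 9.66 and 8.35 CPM in controls, 20.2, 23.2, 24 and 21.8 CPM with Sal, 36.6, 37.2, 40.5 and 32.4 CPM with Das and 60.5, 59.4, 62.3 and 46.6 CPM with S + D at 24 h. The groups did not overlap, and the order was control, Sal, Das, S + D. Log2 fold changes were 1.18 ± 0.12 (adjusted p = 6.98e-06), 1.93 ± 0.12 (adjusted p = 3.17e-08) and 2.58 ± 0.12 (adjusted p = 6.05e-10). At 72 h CTH was 12.8, 15, 13.5 and 9.94 CPM in controls, 45.9, 47.9, 55 and 32.9 CPM with Sal, 48.8, 48.9, 21.3 and 38.1 CPM with Das and 58.8, 52.7, 57.9 and 48.2 CPM with S + D. It rose with Sal (1.81 ± 0.22, adjusted p = 1.93e-06), Das (1.61 ± 0.22, adjusted p = 5.07e-05, or 1.83 ± 0.17, adjusted p = 6.77e-07 without replicate 3) and S + D (2.07 ± 0.22, adjusted p = 4.37e-07).

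ALDH1L2, a mitochondrial folate enzyme, was the other enzyme called higher in all 6 comparisons, from 1.26 ± 0.21 with Sal at 24 h to 2.37 ± 0.22 with S + D at 24 h, and from 1.43 ± 0.20 with S + D to 1.53 ± 0.20 with Sal at 72 h (1.45 ± 0.20 with Das, 1.56 ± 0.20 without replicate 3). PCK2, the mitochondrial enzyme that makes phosphoenolpyruvate, rose with Das and S + D at 24 h (1.01 ± 0.24 and 0.94 ± 0.24) and with Sal and S + D at 72 h (1.17 ± 0.23 and 1.03 ± 0.23). The serine pathway runs from PHGDH through PSAT1 to PSPH. PHGDH rose with Das and S + D at 24 h (0.86 ± 0.11 and 0.53 ± 0.11) and fell with Sal at 72 h (-0.86 ± 0.19). PSAT1 rose with Das and S + D at 24 h (0.96 ± 0.13 and 0.93 ± 0.12) and gave 0.01 ± 0.17 with Sal at 72 h. PSPH fell with Sal and S + D at 72 h (-0.72 ± 0.16 and -0.70 ± 0.16), and its values are uncertain because the pseudogene PSPHP1 held a mean of 1140 counts beside 7658 for PSPH.

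Of the folate enzymes of the mitochondrion, SHMT2, which moves the one-carbon unit from serine, rose with all 3 treatments at 24 h (0.37 ± 0.088, 0.65 ± 0.088 and 0.57 ± 0.088) and was called with none at 72 h. Its call with Sal (adjusted p = 0.00955) was lost in 7 of 8 fits that left out 1 library and in 4 of 8 alternatives. MTHFD2, the next enzyme, rose with S + D at 24 h (0.32 ± 0.079) and fell with Sal at 72 h (-0.34 ± 0.097), and 14.1% of its exon bases are shared with genes of the other strand. CBS, cystathionine beta-synthase, acts directly before CTH in the path to cysteine. It rose with Das at 24 h (0.64 ± 0.098) and fell with Sal and S + D at 72 h (-0.81 ± 0.14 and -0.72 ± 0.14).

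Among amino acid transporters SLC7A5 and SLC3A2 rose with Das and with S + D at both times and were not called with Sal in the fit of all libraries. At 24 h Sal raised 1, Das 5 and S + D 5 of the 7 (14.3%, 71.4% and 71.4%, beside 4.55%, 6.99% and 17.1% of all genes). At 72 h Sal raised 2 and lowered 1 (28.6% and 14.3%, beside 26.3% and 26.8%), Das raised 4 and lowered 0 (57.1% and 0%, beside 10.5% and 9.36%), and S + D raised 5 and lowered 2 (71.4% and 28.6%, beside 27% and 27.9%). SLC7A5 (LAT1), which with SLC3A2 imports leucine and other large neutral amino acids, was 513, 521, 523 and 639.5 CPM in controls, 659, 543, 704 and 824 CPM with Sal, 2215, 1997, 2077 and 2771 CPM with Das and 2235, 2324, 2238 and 2706 CPM with S + D at 24 h. Das and S + D libraries held several times the control level, and Sal libraries overlapped the controls. The log2 fold changes were 2.06 ± 0.13 (adjusted p = 3.62e-08) for Das, 2.15 ± 0.13 (adjusted p = 6.65e-09) for S + D and 0.30 ± 0.12 (adjusted p = 0.123) for Sal. In the numbered libraries alone Sal gave 0.31 ± 0.07 (adjusted p = 0.00226). At 72 h SLC7A5 was 421, 456, 548.5 and 586 CPM in controls, 543.5, 480.2, 461 and 711 CPM with Sal, 1497, 1417, 835 and 2215 CPM with Das and 1168, 1255, 1295 and 1365 CPM with S + D. Even Das replicate 3 was above every control. Das and S + D raised it (1.56 ± 0.22, adjusted p = 6.32e-05 and 1.32 ± 0.22, adjusted p = 4.27e-05, and 1.78 ± 0.17, adjusted p = 6.18e-07 for Das without replicate 3), and Sal gave 0.11 ± 0.21 (adjusted p = 0.676). SLC3A2, the heavy chain partner of SLC7A5 and SLC7A11, followed it with Das (1.36 ± 0.28 at 24 h and 1.08 ± 0.29 at 72 h) and S + D (1.31 ± 0.28 and 1.09 ± 0.29), with 1.28 ± 0.28 for Das at 72 h without replicate 3, and its values with Sal were 0.11 ± 0.27 and 0.21 ± 0.29. Unlike SLC7A5, its Das libraries at 72 h (252 to 723.9 CPM) overlapped the controls (157.9 to 292.3 CPM).

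SLC7A11 (xCT), which exchanges cystine for glutamate, rose with both drugs. At 24 h it was 31.8, 29.95, 28.3 and 26.2 CPM in controls, 53.5, 65.1, 55.6 and 32.3 CPM with Sal, 79.3, 87.45, 97.4 and 49.8 CPM with Das and 129.6, 124, 121.5 and 84 CPM with S + D. The unnumbered library was the lowest of every treated group, though still above the controls in the Sal group by a narrow margin. Das (1.45 ± 0.22, adjusted p = 0.000168) and S + D (2.01 ± 0.22, adjusted p = 2.84e-06) raised it, and Sal gave 0.82 ± 0.22 (adjusted p = 0.0187), or 0.96 ± 0.079 (adjusted p = 3.83e-08) in the numbered libraries. At 72 h SLC7A11 was 30.7, 32.2, 28.2 and 37 CPM in controls, 73.25, 88.4, 94.9 and 63.6 CPM with Sal, 82.6, 82.5, 57.6 and 62.5 CPM with Das and 57.1, 95.9, 94.6 and 71.6 CPM with S + D. Treated libraries were all above the controls, and the log2 fold changes were 1.30 ± 0.18 (adjusted p = 6.5e-06), 1.15 ± 0.18 (adjusted p = 0.000149) and 1.30 ± 0.18 (adjusted p = 6.11e-06) for Sal, Das and S + D. Without replicate 3 Das gave 1.25 ± 0.18 (adjusted p = 4.78e-05). Its exons share 8.97% of their bases with SLC7A11-AS1.

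SLC1A4, a carrier of alanine, serine and cysteine, was called higher in all 6 comparisons, between 0.39 ± 0.11 with Das and 1.09 ± 0.11 with S + D, both at 72 h, the value for Das being 0.44 ± 0.11 without replicate 3. SLC7A1, a carrier of cationic amino acids, rose with Das and S + D at 24 h (0.58 ± 0.14 and 0.65 ± 0.14) and with S + D at 72 h (0.45 ± 0.11). SLC38A2 and SLC1A5, which carry glutamine among other neutral amino acids, were called lower with some treatments at 72 h. SLC38A2 fell with Sal and S + D at 72 h (-0.49 ± 0.093 and -0.79 ± 0.093), and SLC1A5 fell with S + D at 72 h (-0.46 ± 0.13).

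Genes of tRNA charging and export rose in each of the comparisons and none fell. Of 7, Sal, Das and S + D raised 4, 5 and 6 at 24 h (57.1%, 71.4% and 85.7%, beside 4.55%, 6.99% and 17.1% of all genes) and 6, 5 and 6 at 72 h (85.7%, 71.4% and 85.7%, beside 26.3%, 10.5% and 27%). WARS1, tryptophanyl-tRNA synthetase, was 107, 105, 107 and 108 CPM in controls, 162, 148, 173 and 246 CPM with Sal, 201.5, 197, 206 and 239.8 CPM with Das and 264.5, 257, 250.5 and 290.4 CPM with S + D at 24 h. Treated libraries were all above the controls (0.76 ± 0.12, adjusted p = 0.0006, 1.00 ± 0.12, adjusted p = 2.03e-05 and 1.35 ± 0.12, adjusted p = 3.22e-07). At 72 h WARS1 was 128, 121, 116 and 131 CPM in controls, 455, 485, 481 and 505 CPM with Sal, 237, 223, 117 and 238 CPM with Das and 417, 397.5, 395 and 424 CPM with S + D. Sal libraries were then the highest of all groups. Log2 fold changes were 1.94 ± 0.16 (adjusted p = 5.48e-08) for Sal, 1.70 ± 0.16 (adjusted p = 1.32e-07) for S + D and 0.71 ± 0.16 (adjusted p = 0.0027) for Das, whose replicate 3 was at the level of the controls (0.92 ± 0.083, adjusted p = 4.04e-07 without it). Exons of WARS1 share 10.6% of their bases with genes of the other strand.

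XPOT, the exportin that carries tRNA out of the nucleus, was 208, 199, 198 and 182.5 CPM in controls, 255, 288, 276 and 271 CPM with Sal, 307, 326.5, 331 and 278 CPM with Das and 476, 463, 491 and 386 CPM with S + D at 24 h. The treated groups were above the controls (0.46 ± 0.087, adjusted p = 0.00228, 0.68 ± 0.087, adjusted p = 3.9e-05 and 1.24 ± 0.088, adjusted p = 2.83e-08), with the S + D libraries above all others. At 72 h XPOT was 263, 264, 239 and 214.5 CPM in controls, 545, 656, 683 and 435.5 CPM with Sal, 498, 511, 308 and 333 CPM with Das and 569, 575, 556 and 446 CPM with S + D. Every treated library again exceeded the controls, with log2 fold changes of 1.23 ± 0.17 (adjusted p = 9.1e-06) for Sal, 0.74 ± 0.17 (adjusted p = 0.00323) for Das, or 0.88 ± 0.17 (adjusted p = 0.000621) without replicate 3, and 1.11 ± 0.17 (adjusted p = 2.32e-05) for S + D.

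The other synthetases were raised less than WARS1. GARS1 (glycine) was called higher in all 6 comparisons, from 0.61 ± 0.061 with Sal at 24 h to 0.99 ± 0.061 with S + D at 24 h. AARS1 (alanine) was called in all but Sal at 24 h, with 0.79 ± 0.095 for S + D at 24 h and 0.42 ± 0.091 for Sal at 72 h. SARS1 (serine) was called in all but Das at 72 h, with 0.83 ± 0.074 for S + D at 24 h and 0.59 ± 0.17 at 72 h. NARS1 (asparagine) rose with S + D at 24 h (0.56 ± 0.068) and with all 3 treatments at 72 h (0.85 ± 0.11, 0.43 ± 0.11 and 0.76 ± 0.11, with 0.54 ± 0.10 for Das without replicate 3). MARS1 (methionine) was the exception and was called nowhere.

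Sal and Das, given at different doses (0.5 and 15 μM), were then compared with each other. This comparison was added after the data had been seen. At 24 h 8 members were lower with Sal than with Das and 0 were higher, where 4.29% of all genes were lower and 3.7% higher. They were NUPR1, ASNS, PSAT1, PHGDH, CTH, CBS, SLC7A5 and SLC3A2, with the widest gap for SLC7A5 (-1.76 ± 0.13, adjusted p = 2.42e-07). In the numbered libraries alone 25 were lower and 2 higher (13.4% and 15.7% of all genes), and without Sal 24 h replicate 1 the 8 became 4. At 72 h 8 members were higher with Sal and 7 were lower, against 15.2% and 16.9% of all genes. Those higher with Sal were DDIT3 (1.39 ± 0.32), ATF3 (1.31 ± 0.32), WARS1 (1.23 ± 0.16), PPP1R15A (1.19 ± 0.23), PCK2, STC2, SLC1A4 and NARS1. Those lower with Sal were SLC7A5 (-1.45 ± 0.22), ATF5 (-1.20 ± 0.18), PHGDH (-1.03 ± 0.19), ASNS (-0.77 ± 0.16), CBS, MTHFD2 and SLC38A2. The numbered libraries gave 8 higher and 9 lower (16% and 19.1% of all genes). Without Das 72 h replicate 3 there were 6 higher and 6 lower (12% and 13.1% of all genes), and DDIT3 (1.08 ± 0.18), WARS1 (1.05 ± 0.086), SLC7A5 (-1.64 ± 0.17) and ASNS (-0.83 ± 0.16) were among those called. The differences of CTH and SLC7A11 at 72 h were 0.20 ± 0.21 and 0.16 ± 0.17 and were not called.

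**Figure D3:**
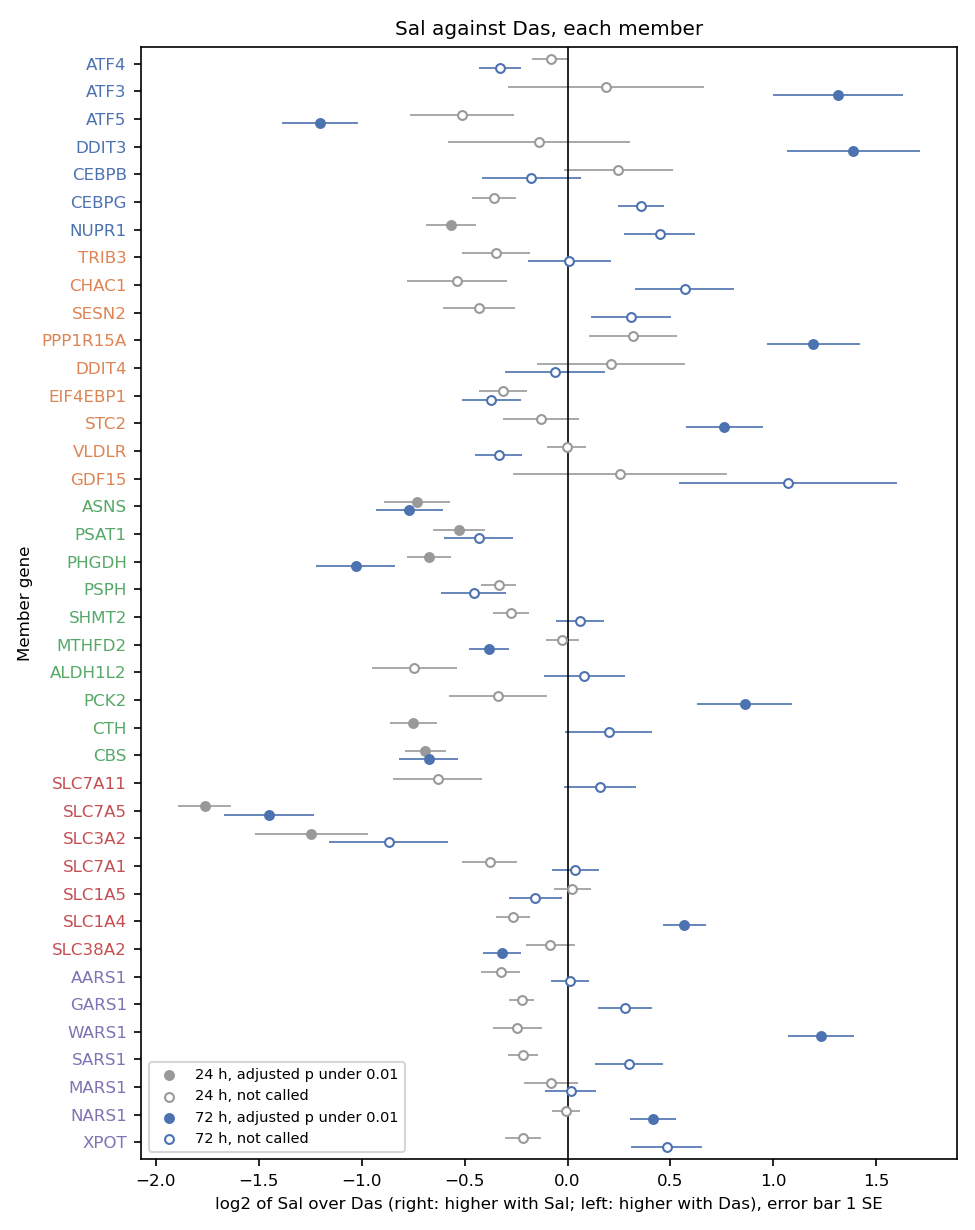
Difference between Sal and Das for each member (x axis, log2 of Sal over Das with 1 SE; y axis, members by role) at 24 h in grey and 72 h in blue, filled where the adjusted p was under 0.01. Filled points at 24 h all lie on the Das side, and at 72 h 8 lie on the Sal side and 7 on the Das side.

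The next question was what the second drug added. At 24 h S + D was higher than Sal alone for 16 members and lower for 0 (5.83% and 7.06% of all genes), led by SLC7A5 (1.84 ± 0.13), CTH (1.40 ± 0.12), SLC3A2 (1.2 ± 0.27) and SLC7A11 (1.19 ± 0.22). In the numbered libraries alone the counts were 27 and 2 (18.4% and 23% of all genes), and leaving out Sal 24 h replicate 1 gave 9. Against Das alone 4 were higher and 0 lower (4.03% and 4.46% of all genes), namely PPP1R15A (1.00 ± 0.22), CTH (0.66 ± 0.11), XPOT (0.56 ± 0.087) and NARS1 (0.32 ± 0.067). The numbered libraries gave 14 higher and 5 lower (13.5% and 19.4% of all genes), and all libraries but Das 24 h replicate 1 gave 2. At 72 h S + D was higher than Sal for 1 member, SLC7A5 (1.21 ± 0.22, adjusted p = 0.00214), and lower for 0 (1.42% and 1.59% of all genes). The call for SLC7A5 was lost when Sal 72 h replicate 2 was left out, and the numbered libraries gave 2 higher and 0 lower (2.4% and 1.91% of all genes). Against Das at 72 h 8 were higher and 5 lower (14.3% and 17.7% of all genes). Higher were ATF3 (1.92 ± 0.32), PPP1R15A (1.64 ± 0.23), DDIT3 (1.59 ± 0.33), STC2, WARS1, NUPR1, SLC1A4 and CEBPG, and lower were ASNS (-0.75 ± 0.16), ATF5, SLC38A2, CBS and MTHFD2. Without Das 72 h replicate 3 these counts were 8 and 3 (11.5% and 13.1% of all genes), and in the numbered libraries 12 and 7 (16.8% and 19.8%).

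S + D was also set against what the single drugs add up to on the log2 scale, where a negative difference means less than the sum. At 24 h edgeR called 0 of the members in either direction, beside 0% of all genes higher and 0.0306% lower, while 16 had an unadjusted p under 0.05 and DESeq2 called 3. In the numbered libraries alone 15 were lower than the sum and 2 higher (4.5% and 0.584% of all genes). At 72 h 5 members were lower than the sum and 0 higher (4.09% and 3.43% of all genes). These were DDIT3 (-2.17 ± 0.46, adjusted p = 0.00421), ALDH1L2 (-1.54 ± 0.28), CTH (-1.35 ± 0.30, adjusted p = 0.0062), SLC7A11 (-1.15 ± 0.25, adjusted p = 0.0049) and WARS1 (-0.95 ± 0.23, adjusted p = 0.00841). For DDIT3 S + D gave a log2 fold change of 3.95, where Sal alone gave 3.75 and Das alone 2.36. Leaving out Control 72 h replicate 1 left 1 call, and the numbered libraries gave 5 lower and 3 higher (6.24% and 6.62% of all genes). Without Das 72 h replicate 3 the counts were 12 lower and 1 higher (8.29% and 6.25% of all genes). These 12 held the same 5 and also ATF3, CEBPG, STC2, XPOT, GARS1, AARS1 and NARS1, and the 1 that was higher, less lowered than the sum, was ATF5 (1.16 ± 0.20). The numbered libraries without that replicate gave 14 lower and 4 higher (14.9% and 15.5% of all genes).

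**Figure D4:**
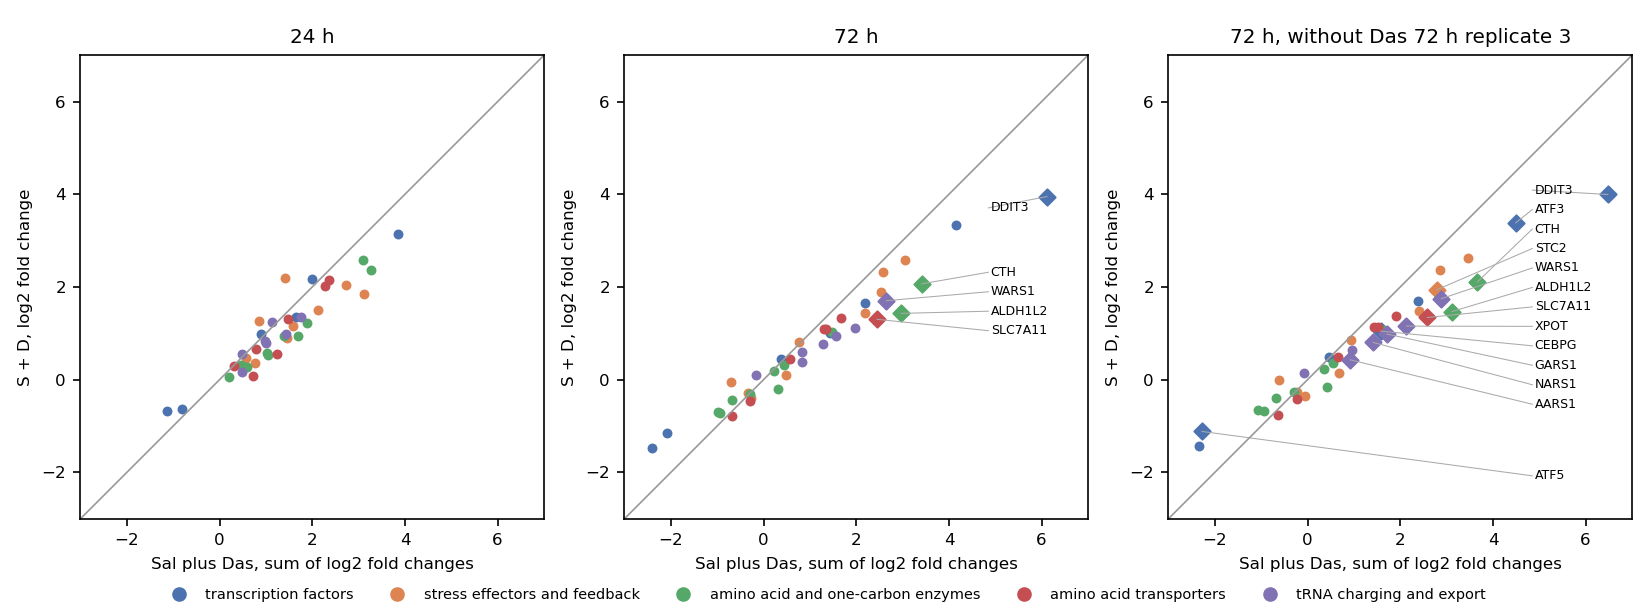
Log2 fold change with S + D (y axis) against the single-drug values added together (x axis) for each member, coloured by role, at 24 h, at 72 h, and at 72 h without Das replicate 3. Diamonds with names mark an adjusted p under 0.01 for the difference, and the grey line is equality. DDIT3, CTH, ALDH1L2, SLC7A11 and WARS1 lie below the line at 72 h.

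Time was compared in one model of all 32 libraries (17227 genes). In the controls 3 members were higher and 1 lower at 72 h than at 24 h, beside 2% and 0.76% of all genes. DDIT4 (1.39 ± 0.33), STC2 (0.88 ± 0.20) and VLDLR (0.54 ± 0.10) were the higher ones and ATF5 (-1.09 ± 0.22) was lower, with 1 of the 4 still called without Control 24 h replicate 1. The response to Sal was larger at 72 h for 7 members and smaller or more negative for 8 (8.21% and 13.7% of all genes). The 7 were PPP1R15A (1.30 ± 0.33), WARS1 (1.19 ± 0.21), NUPR1, XPOT, CEBPG, NARS1 and SLC1A4. The 8 were PHGDH (-1.04 ± 0.23), CBS (-0.76 ± 0.17), EIF4EBP1, PSPH, VLDLR, SLC38A2, SLC1A5 and MTHFD2. DDIT3 had a larger difference than these (1.89 ± 0.59, adjusted p = 0.0144), with a large error, and missed the threshold.

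The response to S + D was larger at 72 h for 1 member, SLC1A4 (0.59 ± 0.13), and smaller for 8 (6.15% and 10.1% of all genes). They were DDIT4 (-1.84 ± 0.46), ASNS (-1.40 ± 0.24, adjusted p = 8.47e-05), SLC38A2 (-1.04 ± 0.15), CBS, PHGDH, VLDLR, PSPH and MTHFD2. Of these, DDIT4 and VLDLR also rose in the controls, from means of 151.4 to 396.3 CPM and of 43.31 to 63.16 CPM. With S + D they went from 416.7 to 305.2 CPM and from 58.18 to 51.94 CPM. The same control values of VLDLR enter its response to Sal. For Das edgeR called 0 members in either direction (0.0522% and 0.174% of all genes), while 14 had an unadjusted p under 0.05 and DESeq2 called 1. With the numbered libraries alone 0 were larger and 8 smaller at 72 h (0.816% and 2.75% of all genes). These fits all kept Das 72 h replicate 3.

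**Figure D5:**
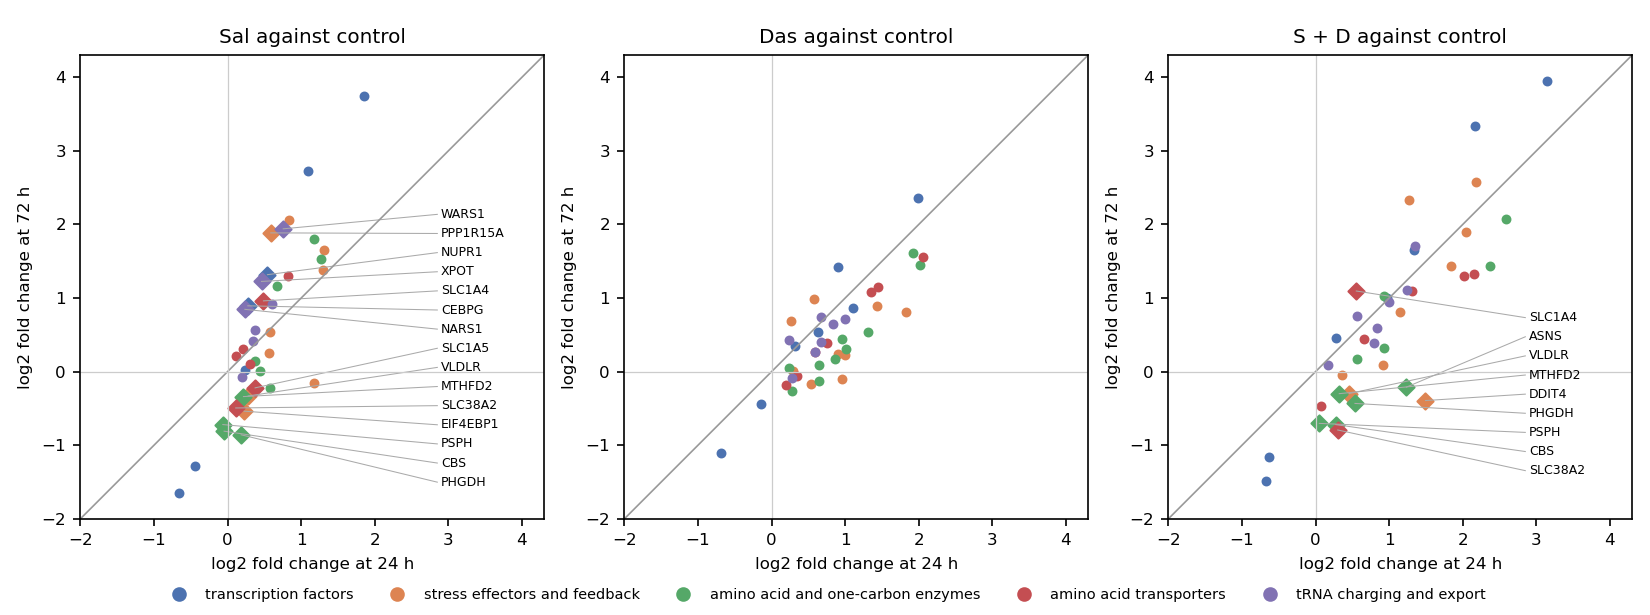
Log2 fold change against the control at 72 h (y axis) and at 24 h (x axis) for each member, coloured by role, with Sal, Das and S + D in separate panels. Diamonds with names mark an adjusted p under 0.01 for the difference between times, and the grey diagonal is equality. The serine and one-carbon genes PHGDH, PSPH and MTHFD2 lie below the diagonal in every panel. They are marked with Sal and S + D and not with Das.

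Other genes of the pathway and its neighbours are given by counts, as lists written with earlier results of these data known. Their counts at 72 h stand beside the shares of all genes called higher and lower, namely 26.3% and 26.8% for Sal, 10.5% and 9.36% for Das, 27% and 27.9% for S + D. The 16 genes of eIF2, its kinases, eIF2B and the phosphatase held, at 72 h, 10 called higher and 2 lower for Sal, 4 higher and 1 lower for Das, and 9 higher and 2 lower for S + D. EIF2AK3 (PERK, the kinase of the endoplasmic reticulum) rose in all 6 comparisons (1.31 ± 0.086 with Sal at 24 h, 1.66 ± 0.18 at 72 h), and EIF2AK4 (GCN2, the kinase that senses uncharged tRNA) did also (0.52 ± 0.078 and 1.11 ± 0.13). Sal also raised EIF2B1, a subunit of the exchange factor of eIF2 (1.42 ± 0.12), and PPP1R15B, the constitutive phosphatase subunit (1.32 ± 0.14), at 72 h. Among 14 other cytosolic tRNA synthetases 8 were higher with Sal at 72 h, 2 with Das and 7 with S + D, and 0 were lower in each. EPRS1 (1.18 ± 0.15), IARS1 (1.02 ± 0.14), FARSA (0.98 ± 0.16) and RARS1 (0.73 ± 0.15) had the largest called changes of this list with Sal. Among 17 mitochondrial tRNA synthetases the counts were 4 higher and 2 lower, 0 and 1, and 4 and 5, and the 4 and 2 with Sal (23.5% and 11.8%) did not exceed the shares of all genes. With Sal MARS2 (-1.25 ± 0.16) and IARS2 (-0.58 ± 0.13) fell and CARS2 (0.70 ± 0.081) and EARS2 (0.60 ± 0.13) rose.

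Of 17 other amino acid transporters 14 were tested, and those called at 72 h were 4 higher and 5 lower for Sal, 1 higher and 2 lower for Das, and 5 higher and 4 lower for S + D. The 4 higher and 5 lower with Sal were 28.6% and 35.7% of the list. SLC16A10, a carrier of aromatic amino acids, fell with Sal (-2.04 ± 0.21), as did SLC43A2, a carrier of large neutral amino acids (-1.88 ± 0.29). SLC1A3, a glutamate carrier, fell with Sal (-1.47 ± 0.14), Das (-1.57 ± 0.14) and S + D (-2.76 ± 0.15), and SLC7A8 (LAT2) rose with Sal (1.86 ± 0.28) and S + D (1.2 ± 0.27). Of 14 other folate and one-carbon enzymes 13 were tested, with 4 higher and 7 lower, 2 and 3, and 4 and 8. GLDC, of the glycine cleavage system, was called lower, from 0.738 CPM ± 0.36 (SD, n = 4) in controls to 0.047 CPM ± 0.0325 (SD, n = 4) with Sal at 72 h. TYMS, thymidylate synthase, fell with Sal (-2.76 ± 0.32) and S + D (-3.18 ± 0.32). ALDH1L1, the cytosolic counterpart of ALDH1L2, was called higher, from 0.0649 CPM ± 0.0618 (SD, n = 4) in controls to 3.8 CPM ± 1.06 (SD, n = 4) with Sal at 72 h. The 18 chaperones and factors of the ATF6 and IRE1 arms were counted likewise, and at 72 h 16 were higher and 1 lower for Sal, 6 higher and 0 lower for Das, and 15 higher and 1 lower for S + D. HSPA5, the chaperone BiP, rose with each treatment (3.36 ± 0.28 for Sal, 1.5 ± 0.26 for Das and 3.35 ± 0.28 for S + D), and HERPUD1, of protein degradation at the endoplasmic reticulum, did too (2.69 ± 0.29, 2.04 ± 0.29 and 2.67 ± 0.29). Sal also raised SDF2L1 (1.89 ± 0.31) and DNAJC3 (1.86 ± 0.19), which work with BiP. The list median with Sal at 72 h was 1.71 on the log2 scale, beside 0.36 for the 40 members.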

How the data were processed

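Total RNA of MDA-MB-468 cells was sequenced from TruSeq RNA libraries. The table used holds whole-number counts of reads per gene, which the authors deposited without normalization. Per the labels' processing notes the authors used bcl2fastq 2.19, STAR 2.5.2, Cufflinks 2.1.1 and DESeq2 with GRCh37, and the counting program, its annotation and its use of strand are not given in the sources used here. Column names gave each library its group. One library a group carried no replicate number. The experiment is described as performed independently for each of the 4 replicates. No pair of libraries in a group was identical, but some numbered ones were close. The chi-square per gene was 1.95 for Control 24 h replicates 2 and 3 and 2.43 for S + D 72 h replicates 2 and 3. Between the unnumbered and the numbered Control 24 h libraries it was 51.1 to 64.1. The errors of fits on the numbered libraries alone leave out this wider spread.

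Genes passing filterByExpr (minimum count 10) were scaled by TMM and tested by edgeR's quasi-likelihood test (edgeR 4.0.16, limma 3.58.1, R 4.3.3), in separate fits of 24 h and 72 h and 1 fit of all 32 libraries for time. P-values were adjusted over all genes by Benjamini-Hochberg, a call being an adjusted p under 0.01. The standard error is the absolute log2 fold change over the square root of F. Levels are CPM on the TMM-scaled library. The scripts were tested on simulated data. Alternatives were DESeq2 1.42.0, RLE scaling, no filter, numbered libraries only, a term for unnumbered libraries, the replicate number as a block, the compared groups alone, other cutoffs and each library left out.

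The members and all lists were chosen with earlier results of these data known. Values in every library are given for ATF4, DDIT3, TRIB3, CHAC1 and ASNS and, in each role group, for the called member with the largest absolute log2 fold change with Sal, Das or S + D at 72 h (reaching a group mean of 1 CPM), 12 members in all. Of each pathway list at most 4 genes are named, those called with the largest change with Sal at 72 h, and 1 such gene is not reported here. Sal against Das, and the fits without Das 72 h replicate 3, were added after the data were seen. Sequences were read from GRCh37.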

Additional observations from a re-analysis of the deposited data

Results flagged for a closer look

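Of 96 groups of 4 libraries (12 members in 8 groups), 18 held 1 library farther from the others than Dixon's 95% critical value allows, where chance flags about 1 in 20 independent groups. The 12 members were read in the same libraries, so these groups are not independent and 1 library can be flagged for several members. Most of these were unnumbered libraries at 24 h. For DDIT3 the unnumbered library held 71.4 CPM with Sal, 67.49 CPM with Das and 121.3 CPM with S + D, each above its numbered counterparts. For ASNS it held 127.6 CPM in controls, 334.2 CPM with Das and 265.6 CPM with S + D at 24 h, and 145 CPM with Sal at 72 h. For STC2 it held 84.76 CPM in controls, 231.6 CPM with Sal and 301.3 CPM with S + D at 24 h. CHAC1 stood at 71.97 CPM with Das and 72.43 CPM with S + D, TRIB3 at 339.9 CPM and SLC7A5 at 639.5 CPM in the unnumbered control at 24 h. At 72 h the unnumbered control held 3.906 CPM of GDF15, and the unnumbered S + D library held 445.9 CPM of XPOT, below the numbered ones. Among numbered libraries, S + D 72 h replicate 1 held 1149 CPM of ATF4, above its group, and Das 72 h replicate 3 held 116.9 CPM of WARS1, below its group. Why these libraries stood apart was not tested.

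By a test of the difference between times in edgeR (adjusted p under 0.01), the response of 15 members to Sal and of 9 members to S + D differed between 72 h and 24 h.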

How the results depend on the processing

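Each count of members called was recomputed under the alternatives. No called value of a single member reversed its direction under any of them: 2406 values of single members stayed on their side of the threshold, 145 lost and 53 gained a call, and 4 that were not called, of GDF15, ATF4 and SLC7A5, changed sign. Of the calls against the control, 4 of 11 (Sal), 22 of 26 (Das) and 26 of 31 (S + D) at 24 h and 23 of 27, 7 of 17 and 26 of 30 at 72 h held in every alternative and with every library left out in turn, the fold change cutoff set aside. RLE scaling and no filter on low counts moved no count by over 1.5 times. DESeq2 called 18 members for Sal at 24 h, 3 for S + D against the sum at 24 h and 8 at 72 h, 2 for S + D against Sal at 72 h and 1 for the Das response between times.

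The unnumbered libraries mattered most at 24 h. With a term for them, Sal at 24 h had 29 calls, S + D against Sal, Das and the sum 27, 18 and 10 at 24 h and 3, 21 and 11 at 72 h, Sal against Das 23 at 24 h and 23 at 72 h, the controls over time 8, the Das response 8 and the S + D response 18. Without those libraries, Sal at 24 h had 33, S + D against Sal, Das and the sum 29, 19 and 17 at 24 h, S + D against Sal 2 and the sum 8 at 72 h, Sal against Das 27 at 24 h, the controls 9, the Das response 8 and the S + D response 17. What sets these libraries apart is not given in the labels, and the cause was not tested.

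The replicate block (replicate number as a term) gave 27 calls for Sal at 24 h, 27, 17 and 7 for S + D against Sal, Das and the sum at 24 h and 3, 22 and 10 at 72 h, 21 and 23 for Sal against Das, 8 for the controls, 7 for the Das response and 18 for the S + D response. The numbers share no more than a name. Among the numbered libraries the deviations of same-numbered libraries correlated at -0.08 to 0.099 at 24 h and -0.2 to 0.077 at 72 h, and 0 of 18 pairs at either time exceeded 0.1, while the unnumbered libraries, which the block holds as a number of their own, correlated with each other at 0.59 to 0.67 and 0.52 to 0.61.

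Fitting the compared groups alone gave 6 calls for Sal at 24 h, 10 for S + D against Sal at 24 h, 3 and 8 for Sal against Das at 24 h and 72 h, 8 for Das at 72 h and 15 for the S + D response, and one fit of all 32 libraries gave 1 for S + D against Das at 24 h and 2 and 8 for S + D against Sal and the sum at 72 h. An adjusted p under 0.05 gave 21 for Sal at 24 h, 10 and 3 for S + D against Das and the sum at 24 h, 3, 22 and 11 for S + D against Sal, Das and the sum at 72 h, 15 and 24 for Sal against Das, 1 for the Das response and 15 for the S + D response. Adding the study's fold change cutoff (an absolute log2 fold change of 1.5) left 0, 5 and 9 calls for Sal, Das and S + D at 24 h and 9, 3 and 8 at 72 h. It left 1 and 0 for S + D against Sal and Das at 24 h, 0, 3 and 2 against Sal, Das and the sum at 72 h, 1 and 0 for Sal against Das, 0 for the controls, 0 for the Sal response and 1 for the S + D response.

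With 1 library left out at a time the counts ranged from 9 to 18 for S + D against Sal at 24 h (lowest without Sal 24 h replicate 1), 2 to 4 against Das (lowest without Das 24 h replicate 1), 0 to 2 against the sum (highest without Sal 24 h replicate 2) and 4 to 11 for Sal against Das at 24 h (lowest without Sal 24 h replicate 1). They ranged from 11 to 22 for Das at 72 h (lowest without Control 72 h replicate 3, highest without Das 72 h replicate 3), 0 to 1 for S + D against Sal at 72 h (lowest without Sal 72 h replicate 2), 1 to 13 against the sum at 72 h (lowest without Control 72 h replicate 1, highest without Das 72 h replicate 3), 1 to 4 for the controls (lowest without Control 24 h replicate 1) and 0 to 3 for the Das response (highest without the unnumbered Das 72 h library).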
